A study of Saccharomyces cerevisiae with 12 samples.

Results

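The 7 genes described here encode the glycine cleavage system and the folate enzymes beside it in the yeast Saccharomyces cerevisiae: GCV1 (YDR019C), GCV2 (YMR189W), GCV3 (YAL044C), LPD1 (YFL018C), SHM1 (YBR263W), SHM2 (YLR058C) and MTD1 (YKR080W). They were picked by locus name as genes of one pathway, and are 7 of the 7126 features listed in each library. They were proposed with results of the mutant against wild-type comparisons known, so their differences from wild type are given as a description, without a test. Comparisons among the mutant groups are tested, and are not known to have served in choosing the genes. Whether they did is not recorded, so their p values carry that uncertainty.

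RNA was sequenced from 12 cultures of MATα cells of the W303 background, a common laboratory strain, grown in SC medium at 24 °C to mid-log phase, with 3 biological replicates in each of 4 groups. The groups were labelled epl1Δ sds3Δ (epl1Δ::kanMX with sds3Δ::natMX), esa1Δ sds3Δ (esa1Δ::HIS3 with sds3Δ::natMX), esa1Δ epl1Δ sds3Δ (esa1Δ::HIS3 and epl1Δ::kanMX with sds3Δ::natMX) and wild type. For wild type the labels list the alleles ade2-1, can1-100 and his3-11, then trp1-1 and ura3-1 and a leu2 allele. ESA1 encodes the catalytic subunit of the histone acetyltransferase NuA4 and of its smaller form, piccolo NuA4, EPL1 encodes a subunit of both, and SDS3 encodes a subunit of the histone deacetylase Rpd3L. All mutant labels share sds3Δ, and no group labelled sds3Δ alone was analysed here. In comparisons with wild type, the part that any single deletion plays therefore cannot be told apart. Among the mutant labels, esa1Δ epl1Δ sds3Δ differs from epl1Δ sds3Δ by esa1Δ with its HIS3 marker. It differs from esa1Δ sds3Δ by epl1Δ with its kanMX marker. The part of a deletion and that of its marker cannot be told apart.

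Glycine cleavage takes place in mitochondria. The complex splits glycine into carbon dioxide and ammonia and passes the remaining carbon to tetrahydrofolate, the carrier of one-carbon units. Serine hydroxymethyltransferase moves a carbon between serine and the same carrier, and the loaded folates feed the synthesis of purines, thymidylate and methionine. In S. cerevisiae the GCV genes are known to respond to glycine, and Bas1, a transcription factor that acts with Pho2 on purine synthesis genes, is known to act on several genes of this pathway.

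The depth was 8089179 to 14527280 reads behind the values of a library. Read counts of the deleted genes served as a check: ESA1 had 1 to 3 reads in the libraries labelled esa1Δ, against 181 to 310 in wild type, and EPL1 had 4 to 13 in those labelled epl1Δ, against 73 to 142 in wild type. SDS3 had 36 to 77 reads in the libraries labelled sds3Δ, against 112 to 158 in wild type, which goes against that label, so groups are called by their labels throughout. The α-cell genes MF(ALPHA)1, STE3 and SAG1 summed to 289 to 370 scaled RPKM with the epl1Δ sds3Δ label, 309 to 355 with the esa1Δ sds3Δ label, 319 to 343 with the esa1Δ epl1Δ sds3Δ label and 763 to 917 in wild type. The a-cell genes STE2, MFA1, MFA2, STE6 and BAR1 summed to 7.94 to 14.5, 9.21 to 12.2 and 7.52 to 13.6 in the same mutant labels and 6.11 to 8.0 in wild type. The α-cell sum exceeded the a-cell sum in all 12 libraries, and it was lower in each mutant group than in wild type. The part of this difference in the results below was not tested.

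Upstream stretches of the 7 genes are shown first, because most of them share a short motif. Each runs from 250 to 91 bases before the annotated coding start, 5′ to 3′ on the strand of the gene, from RefSeq's R64 genome, the same assembly as sacCer3. Capitals mark TGACTC or its reverse complement GAGTCA, the core of sites bound by Bas1 and by Gcn4, the activator of amino acid synthesis genes.
GCV1: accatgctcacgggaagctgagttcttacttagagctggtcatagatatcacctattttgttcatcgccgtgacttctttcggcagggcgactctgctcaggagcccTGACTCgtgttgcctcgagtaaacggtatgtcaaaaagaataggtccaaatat
GCV2: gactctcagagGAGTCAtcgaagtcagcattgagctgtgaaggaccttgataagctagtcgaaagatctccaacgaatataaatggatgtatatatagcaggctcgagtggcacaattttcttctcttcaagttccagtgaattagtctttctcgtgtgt
GCV3: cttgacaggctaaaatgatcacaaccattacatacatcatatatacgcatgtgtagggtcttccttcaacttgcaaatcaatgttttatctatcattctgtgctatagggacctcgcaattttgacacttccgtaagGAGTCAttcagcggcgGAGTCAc
LPD1: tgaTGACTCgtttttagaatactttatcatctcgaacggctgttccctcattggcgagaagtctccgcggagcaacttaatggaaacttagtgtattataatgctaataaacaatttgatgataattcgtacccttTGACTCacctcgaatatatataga
SHM2: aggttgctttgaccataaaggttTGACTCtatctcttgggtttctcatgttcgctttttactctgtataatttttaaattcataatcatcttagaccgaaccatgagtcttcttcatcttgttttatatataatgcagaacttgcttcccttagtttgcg
MTD1: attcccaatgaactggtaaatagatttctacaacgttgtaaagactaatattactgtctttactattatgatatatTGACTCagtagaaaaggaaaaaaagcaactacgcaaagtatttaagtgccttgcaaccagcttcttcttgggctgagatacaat
SHM1: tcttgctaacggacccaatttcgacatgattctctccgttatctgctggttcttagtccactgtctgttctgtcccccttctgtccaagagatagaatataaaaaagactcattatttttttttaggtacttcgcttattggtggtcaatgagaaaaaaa

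In R64 coordinates these stretches are chrIV:485456-485615 on the minus strand for GCV1, chrXIII:637250-637409 on the plus strand for GCV2, chrI:58553-58712 on the minus strand for GCV3 and chrVI:103218-103377 on the minus strand for LPD1. For SHM2 the stretch is chrXII:259492-259651 on the minus strand, for MTD1 chrXI:590145-590304 on the plus strand and for SHM1 chrII:736014-736173 on the plus strand. Each gene has 1 coding exon, and no other annotated gene overlaps any of the 7. TGACTC, searched on both strands from 250 bases before the coding start to 50 bases after it, lay upstream of 6 of the 7 genes and in 7.96% of the 6020 such windows in the genome. GCV3 and LPD1 held 2 copies each, and SHM1 was the gene without a match. The longer form TGACTCA, which overlaps the core and is bound by Gcn4, lay upstream of LPD1 and MTD1 and in 2.72% of windows. CTTCTT, part of a motif described for the glycine response of the GCV genes, lay upstream of GCV1, SHM2 and MTD1 and in 35.9% of windows. CACGTG, bound by Cbf1 and Pho4, lay upstream of none of the 7 and in 2.91% of windows. These matches are letters in a window, and binding was not measured.

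**Figure D1:**
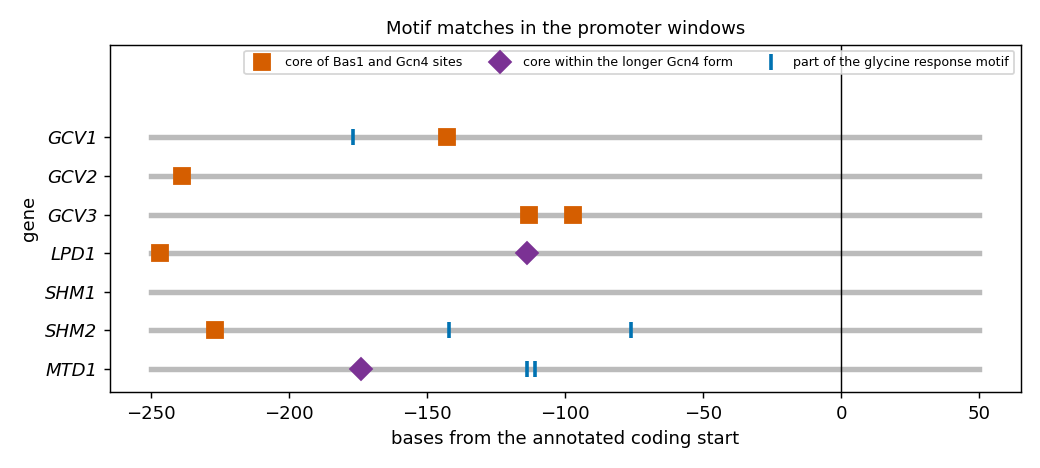
Positions of motif matches in the windows from 250 bases before to 50 bases after the coding start, in bases (x axis), for each of the 7 genes (y axis). Squares are the core of Bas1 and Gcn4 sites, diamonds the core within the longer Gcn4 form, and bars part of the glycine response motif. The core lies upstream of 6 genes and SHM1 has no mark.

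Levels are given as RPKM, that is, reads per unit of gene length and of library size, divided by a scaling factor of the library. Differences are on the scale log2(scaled RPKM + 1), with the standard error (SE) of limma's fit of all 12 libraries, and understate the change of low genes. Features were called at a limma adjusted p under 0.05, and all 7 genes were among the 5951 features tested. Of those, 30.1% were called higher and 29.9% lower with the epl1Δ sds3Δ label than in wild type. In libraries labelled esa1Δ sds3Δ the shares were 30.0% and 29.7%, and with the esa1Δ epl1Δ sds3Δ label they were 30.1% and 29.3%. With RPKM as deposited, without the scaling factor, the median of all features moved by -0.24, -0.24 and -0.18 on the log2 scale, and the share of calls that were higher was 31.4%, 31.2% and 34.7% in the same order, against 50.2%, 50.3% and 50.7%.

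The 3 genes that belong to the glycine cleavage system alone, GCV1, GCV2 and GCV3, averaged between 13.6% and 33.0% of the wild-type mean in the mutant groups, and stood below every wild-type library in all 9 mutant libraries. LPD1, the dehydrogenase that glycine cleavage shares with other complexes, averaged between 49.7% and 50.8%. SHM2, the cytosolic serine hydroxymethyltransferase, averaged 61.8%, 41.9% and 41.6% for epl1Δ sds3Δ, for esa1Δ sds3Δ and for esa1Δ epl1Δ sds3Δ. SHM1, its mitochondrial counterpart, lay between 99.6% and 110.0%, and MTD1 had values on both sides of wild type. In RNA from whole cultures, fewer cells with a transcript and less of it per cell cannot be told apart.

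GCV1 encodes the T subunit, the aminomethyltransferase that hands the carbon to tetrahydrofolate. It had 10.4, 9.87 and 11.1 scaled RPKM with the epl1Δ sds3Δ label, 6.23, 5.25 and 6.67 with the esa1Δ sds3Δ label and 6.28, 5.16 and 5.11 with the esa1Δ epl1Δ sds3Δ label, against 57.0, 29.7 and 34.6 in wild type. These values rest on 52 to 125 reads in a mutant library and 478 to 1106 in a wild-type library. Every mutant library was below every wild-type library, and the 3 libraries labelled epl1Δ sds3Δ were above the other 6 mutant libraries. The log2 fold changes were -1.80, -2.51 and -2.62 for epl1Δ sds3Δ, for esa1Δ sds3Δ and for esa1Δ epl1Δ sds3Δ against wild type (SE 0.185). Wild-type replicate 1 was the highest of its group, and without it the log2 fold changes were -1.53, -2.23 and -2.35.

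GCV2 encodes the P subunit, the decarboxylase that acts on glycine itself. Its levels were 17.5, 15.5 and 16.0 scaled RPKM with the epl1Δ sds3Δ label, 12.1, 11.4 and 11.9 with the esa1Δ sds3Δ label and 10.3, 13.2 and 11.7 with the esa1Δ epl1Δ sds3Δ label, against 73.8, 38.8 and 36.0 in wild type. As with GCV1, the groups with a mutant label did not overlap wild type, and the libraries labelled epl1Δ sds3Δ lay above the other mutants. The log2 fold changes were -1.47, -1.91 and -1.92 (SE 0.203), and -1.15, -1.59 and -1.60 without wild-type replicate 1.

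GCV3 encodes the H subunit, the small lipoyl protein that carries the intermediate between the other subunits. It had 22.5, 23.4 and 26.4 scaled RPKM with the epl1Δ sds3Δ label, 20.6, 18.9 and 23.5 with the esa1Δ sds3Δ label and 17.3, 24.0 and 22.9 with the esa1Δ epl1Δ sds3Δ label, against 92.6, 70.9 and 55.1 in wild type. The mutant groups overlapped each other and not wild type. The log2 fold changes of GCV3 were -1.53, -1.72 and -1.70 (SE 0.170), and -1.35, -1.54 and -1.52 without wild-type replicate 1.

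LPD1 encodes dihydrolipoamide dehydrogenase, the L subunit, which also serves pyruvate dehydrogenase and 2-oxoglutarate dehydrogenase. The mutant libraries had 39.2, 48.2 and 43.1 scaled RPKM with the epl1Δ sds3Δ label, 44.5, 45.7 and 40.4 with the esa1Δ sds3Δ label and 43.1, 43.9 and 40.8 with the esa1Δ epl1Δ sds3Δ label, against 86.7, 82.3 and 87.9 in wild type. LPD1 was the steadiest of the 7 in the wild-type libraries, and all 9 mutant libraries were lower. Its log2 fold changes were -0.97, -0.96 and -0.99 (SE 0.0933), and -0.96, -0.95 and -0.98 without wild-type replicate 1.

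**Figure D2:**
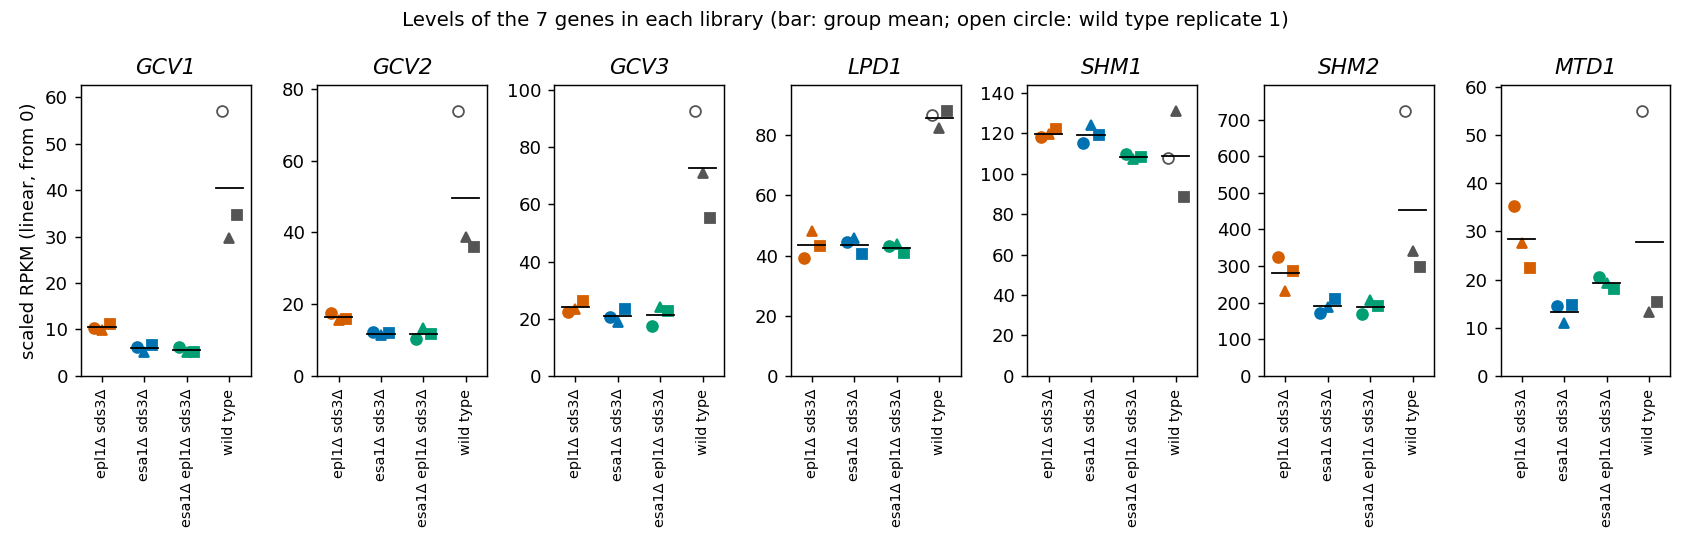
Scaled RPKM (y axis, linear from 0) of each gene in the 12 libraries, by label (x axis). Points are libraries (circle, triangle and square for replicates 1, 2 and 3), bars are group means, and the open circle is wild-type replicate 1. GCV1, GCV2, GCV3 and LPD1 are lower in all 9 mutant libraries than in the 3 wild-type libraries, SHM1 overlaps, and the open circle is the highest point for GCV1, GCV2, GCV3, SHM2 and MTD1.

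SHM1 and SHM2 encode the same enzyme activity for mitochondria and for the cytosol. SHM1 had 118, 119.5 and 122 scaled RPKM with the epl1Δ sds3Δ label, 115, 124 and 119 with the esa1Δ sds3Δ label and 109.7, 107 and 108.5 with the esa1Δ epl1Δ sds3Δ label, against 108, 131 and 88.4 in wild type. All 9 mutant libraries fell within the range of the wild-type libraries. The log2 fold changes were 0.15, 0.15 and 0.01 (SE 0.118), and with RPKM as deposited they turned to -0.10, -0.11 and -0.19, so no direction is given for SHM1.

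SHM2 had the highest level of the 7 genes in every group. It had 324, 231 and 286 scaled RPKM with the epl1Δ sds3Δ label, 172, 187 and 211 with the esa1Δ sds3Δ label and 168, 207 and 190.1 with the esa1Δ epl1Δ sds3Δ label, against 723, 340.4 and 298 in wild type. The libraries labelled esa1Δ sds3Δ and esa1Δ epl1Δ sds3Δ were below every wild-type library, while replicate 1 of those labelled epl1Δ sds3Δ lay above the lowest wild-type library. The log2 fold changes were -0.59, -1.14 and -1.15 (SE 0.256). Without wild-type replicate 1 they were -0.20, -0.75 and -0.76, and the groups labelled epl1Δ sds3Δ and wild type overlapped with it and without it.

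Set over SHM1 within a library, which removes the scaling factor, SHM2 had ratios of 2.75, 1.93 and 2.34 with the epl1Δ sds3Δ label, 1.49, 1.51 and 1.77 with the esa1Δ sds3Δ label and 1.54, 1.93 and 1.75 with the esa1Δ epl1Δ sds3Δ label, against 6.71, 2.60 and 3.37 in wild type. The cytosolic gene was thus above the mitochondrial one in all 12 libraries. The mean ratios were 2.34 ± 0.408, 1.59 ± 0.154 and 1.74 ± 0.198 for epl1Δ sds3Δ, for esa1Δ sds3Δ and for esa1Δ epl1Δ sds3Δ, and 4.23 ± 2.18 in wild type (SD, n = 3 each). Between mutant labels, the log2 ratio of esa1Δ sds3Δ differed from that of epl1Δ sds3Δ by -0.55 and that of esa1Δ epl1Δ sds3Δ by -0.42, with a p of 0.1 in both exact two-sided permutation tests, the smallest that 3 libraries against 3 allow (0.15 when adjusted over the 3 pairs). The exact permutation test of esa1Δ epl1Δ sds3Δ against esa1Δ sds3Δ gave a difference of 0.13 and a p of 0.3.

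**Figure D3:**
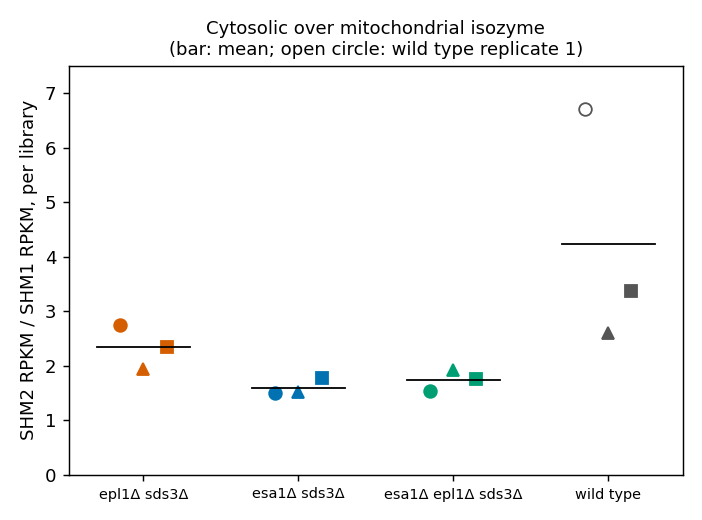
Ratio of SHM2 to SHM1 RPKM in each library (y axis, linear from 0), by label (x axis). Points are libraries, bars are group means, and the open circle is wild-type replicate 1. The 6 libraries with an esa1Δ label lie between 1.49 and 1.93, and wild-type replicate 1 is at 6.71.

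MTD1 encodes the cytosolic NAD-dependent methylenetetrahydrofolate dehydrogenase, which oxidises the loaded folate. Its levels were 35.3, 27.7 and 22.5 scaled RPKM with the epl1Δ sds3Δ label, 14.5, 10.9 and 14.6 with the esa1Δ sds3Δ label and 20.5, 19.2 and 18.1 with the esa1Δ epl1Δ sds3Δ label, against 54.9, 13.3 and 15.4 in wild type. Wild-type replicate 1 was above, and the other wild-type libraries were below, every library labelled epl1Δ sds3Δ or esa1Δ epl1Δ sds3Δ. The log2 fold changes of 0.30, -0.73 and -0.22 (SE 0.378) became 0.92, -0.11 and 0.40 without wild-type replicate 1. In the last comparison the sign turned, and 1 library decides how MTD1 compares with wild type.

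Over the 7 genes, the median log2 fold change was -0.97, -1.14 and -1.15 for epl1Δ sds3Δ, for esa1Δ sds3Δ and for esa1Δ epl1Δ sds3Δ, beside medians of -0.005, -0.006 and 0.004 over all features tested. Without wild-type replicate 1 the 7 genes had medians of -0.96, -0.95 and -0.98. The medians without that replicate, and the median of -0.97 with it, are the values of LPD1, which it hardly moved. The medians of -1.14 and -1.15 are the values of SHM2. GCV1, GCV2, GCV3, SHM2 and MTD1 moved more. With the epl1Δ sds3Δ label, SHM2 went from -0.59 to -0.20 and MTD1 from 0.30 to 0.92. The libraries of the compared groups did not overlap for 4, 5 and 5 of the 7 genes, or 57.1%, 71.4% and 71.4%, while this held for 61.5%, 63.1% and 64.1% of all features, a share of the same order. The 3 comparisons share the wild-type libraries.

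**Figure D4:**
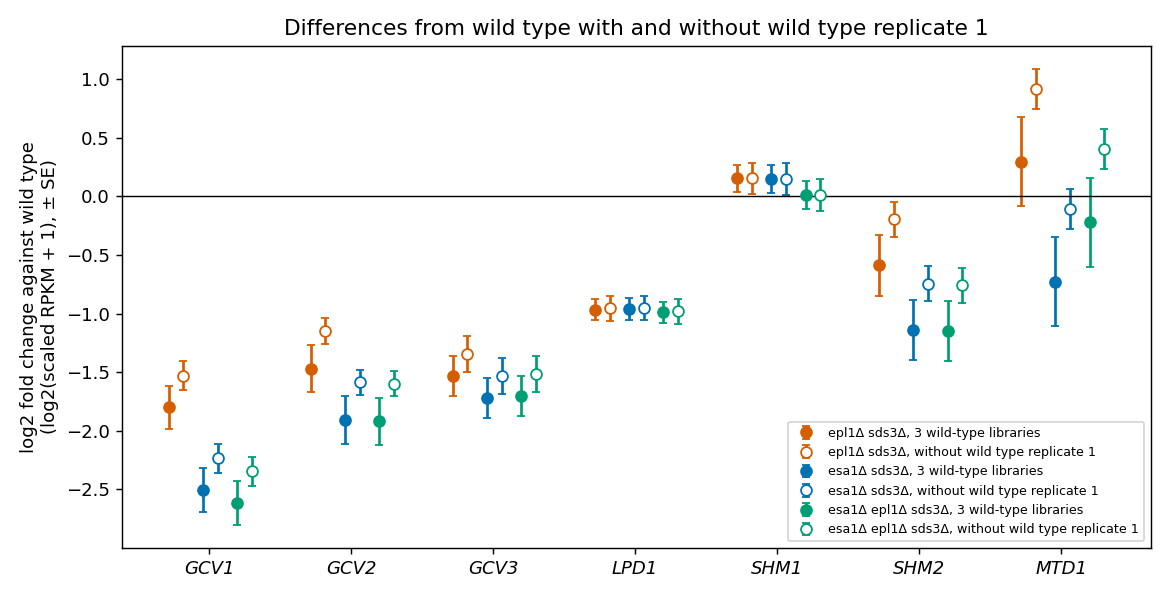
Log2 fold changes of the 7 genes against wild type (y axis, difference on the log2(scaled RPKM + 1) scale, bars ± SE), by gene (x axis) and mutant label (colour). Filled points use 3 wild-type libraries and open points leave out replicate 1. LPD1 and SHM1 keep their place, SHM2 labelled epl1Δ sds3Δ lies at -0.59 with all wild-type libraries and at -0.20 without replicate 1, and MTD1 labelled esa1Δ epl1Δ sds3Δ crosses 0.

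The wild-type libraries were not alike for these genes. Replicate 1 exceeded the mean of the other wild-type libraries by 1.87 on the log2 scale for MTD1, by 1.18 for SHM2, 0.96 for GCV2, 0.81 for GCV1 and 0.56 for GCV3, and by 0.03 for LPD1 and 0.00 for SHM1. Ordered by this excess, MTD1 was number 2, SHM2 number 18, GCV2 number 38 and GCV1 number 78 of the 5951 features. The median excess was 0.81 over the 7 genes and -0.01 over all features, and 0.958% of features differed by 1 or more, against 0.706% to 1.53% in the other 11 libraries set against their own groups. Outside wild type, the same median over the 7 genes lay between -0.07 and 0.19 in the 9 mutant libraries.

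Purine synthesis genes, which use formylated folates in some of their steps, stood high in the same library. Of 10 such genes, 9 were above the other wild-type libraries in replicate 1, with a median excess of 0.92 on the log2 scale. ADE17, which carries out the last steps to inosine monophosphate, and ADE1, which acts in the middle of the pathway, exceeded them by 1.56 each. ADE4, the enzyme of the first step, exceeded them by 1.14, ADE57 (the reference's name for ADE5,7) by 1.06 and ADE13, adenylosuccinate lyase, by 1.01. ADE16, the isozyme of ADE17, was the exception at -0.21. What set this library apart was not tested.

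**Figure D5:**
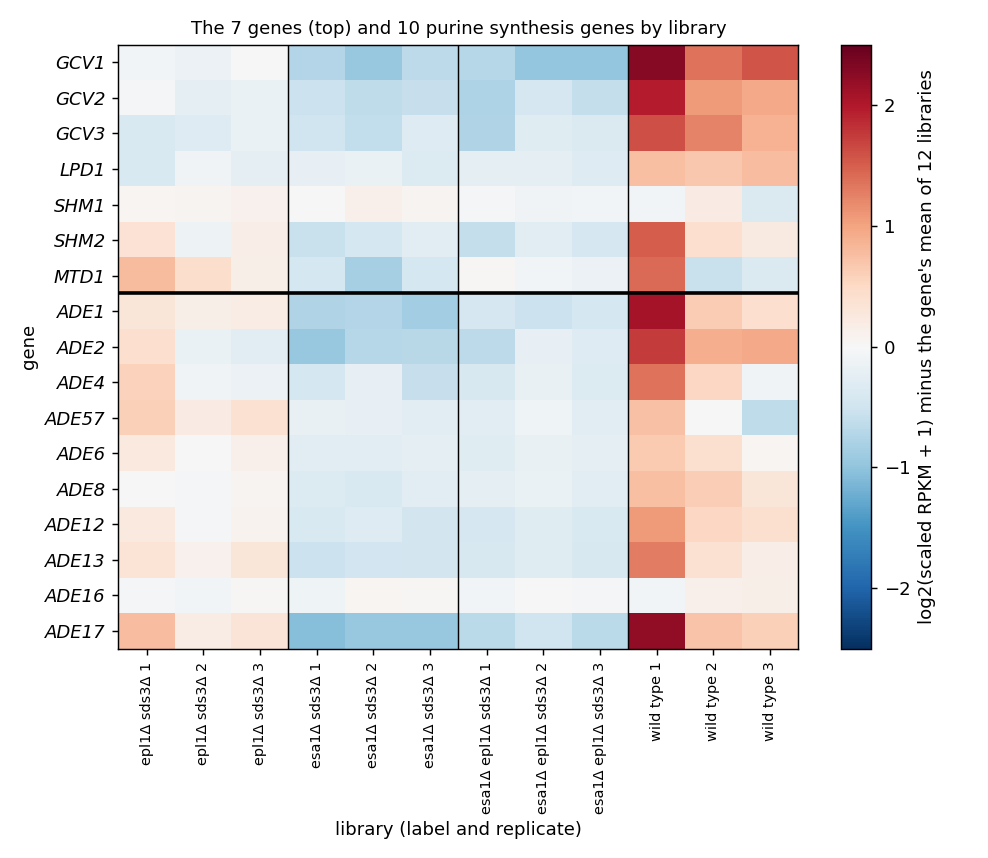
Each row is a gene (the 7 genes above the line, 10 purine synthesis genes below it), each column a library, and the colour is log2(scaled RPKM + 1) minus the gene's mean over the 12 libraries. Wild-type replicate 1 is the reddest column for MTD1, SHM2, ADE1 and ADE17, whereas LPD1 is red in all 3 wild-type libraries and SHM1 and ADE16 stay pale.

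The mutant groups were then compared with each other. None of the 7 genes was called by limma in any of these 3 comparisons, in which 0.185%, 0.134% and 0.0504% of the 5951 features were called (esa1Δ sds3Δ against epl1Δ sds3Δ, esa1Δ epl1Δ sds3Δ against epl1Δ sds3Δ, and esa1Δ epl1Δ sds3Δ against esa1Δ sds3Δ). Voom on recovered reads called 0 of the 7 as well. At an unadjusted p under 0.05, limma had 2, 3 and 0 of the 7 genes, and voom 4, 3 and 0. Over all features, limma had 282, 387 and 378 of 5951 at that level, and voom 203, 322 and 309 of 5552. The libraries did not overlap for 4, 5 and 2 of the 7 genes, while they did not for 10.4%, 16.6% and 20.3% of all features. The SE of these comparisons comes from all 12 libraries and so takes in the spread of wild type. Against wild type, leaving out wild-type replicate 1 lowered the SE from 0.185 to 0.124 for GCV1 and from 0.203 to 0.108 for GCV2. For SHM2 it went from 0.256 to 0.150 and for MTD1 from 0.378 to 0.170. Mutant pairs were not refitted without that library alone, so its part in their calls and intervals was not tested.

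GCV1 had the smallest p among the 7. It averaged 6.05 ± 0.728 scaled RPKM with the esa1Δ sds3Δ label and 10.5 ± 0.634 with the epl1Δ sds3Δ label (SD, 3 libraries each), a log2 difference of -0.71 (95% interval -1.11 to -0.30, limma p 0.00225, adjusted p 0.491). In libraries labelled esa1Δ epl1Δ sds3Δ it averaged 5.52 ± 0.661, a difference of -0.82 from epl1Δ sds3Δ (-1.22 to -0.42, limma p 0.000731, adjusted p 0.311). All 6 libraries with an esa1Δ label were lower than all 3 without one among the mutants. With only these 2 groups fitted, the difference between esa1Δ epl1Δ sds3Δ and epl1Δ sds3Δ was called (limma adjusted p 0.0349). Its adjusted p lay between 0.0349 and 0.856 across the alternatives run.

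GCV2 and SHM2 had the same order without passing the test. GCV2 differed by -0.44 (-0.88 to 0.00) between esa1Δ sds3Δ and epl1Δ sds3Δ and by -0.45 (-0.89 to -0.01) between esa1Δ epl1Δ sds3Δ and epl1Δ sds3Δ, as log2 differences with 95% intervals. For SHM2 the differences were -0.55 (-1.10 to 0.01) and -0.56 (-1.12 to -0.01). MTD1 differed by -1.02 (-1.84 to -0.21, limma adjusted p 0.854) and by -0.52 (-1.34 to 0.30). GCV3, LPD1 and SHM1 had differences between -0.19 and 0.00, and all of their intervals took in 0. Between esa1Δ epl1Δ sds3Δ and esa1Δ sds3Δ, the differences of the 7 genes lay between -0.14 and 0.51, the highest being that of MTD1 (-0.31 to 1.33).

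Within a group the levels kept much the same order. SHM2 was followed by SHM1 and then LPD1 in every group, with each clear of the next in the mutant groups, where no library of one gene overlapped those of the next. GCV1 had the lowest level in each mutant group, at 10.5, 6.05 and 5.52 scaled RPKM for epl1Δ sds3Δ, for esa1Δ sds3Δ and for esa1Δ epl1Δ sds3Δ. In wild type MTD1 was lowest at 27.9 ± 23.4 (SD, n = 3), and from LPD1 downwards the libraries of neighbouring genes overlapped. MTD1 and GCV3 overlapped in libraries labelled epl1Δ sds3Δ and esa1Δ epl1Δ sds3Δ, and MTD1 and GCV2 with the esa1Δ sds3Δ label.

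The genes most like each member in pattern were found by centring every feature on its own mean over the 12 libraries and taking the mean absolute log2 difference, among 3786 features of at least 10 RPKM. The 3 nearest to GCV1 were SRY1 (0.19), which encodes a dehydratase of hydroxyaspartate, the alcohol dehydrogenase gene ADH5 (0.24) and GCV2 (0.25). GCV2 and GCV3 were each other's nearest (0.15). GCV2 was followed by the fatty acid elongase gene ELO1 (0.20) and the mitochondrial thiol oxidase gene ERV1 (0.21), and GCV3 by the α-factor gene MF(ALPHA)1 (0.16) and ERV1 (0.17). LPD1 was nearest to VPS25 (0.07), STO1 (0.07) and MRPS35 (0.08), genes of endosomal sorting, the nuclear cap-binding complex and the mitochondrial ribosome, while GCV3, the nearest of the 7 genes, was number 1057 in order.

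For SHM2 the nearest were all purine synthesis genes, ADE13 (0.10), ADE12 (0.14) and ADE4 (0.18). MTD1 was nearest to SNZ1 (0.21), a vitamin B6 synthesis gene, ADE57 (0.31) and the histidine synthesis gene HIS7 (0.32). SNZ1 averaged 52.9 scaled RPKM with the epl1Δ sds3Δ label, 27.7 with the esa1Δ sds3Δ label, 32.7 with the esa1Δ epl1Δ sds3Δ label and 34.1 in wild type. MTD1 had the same order of group means, at 28.5, 13.4, 19.3 and 27.9, but its wild-type mean was 14.4 without replicate 1. SHM1 was nearest to RLI1, PHO91 and ERG13 (0.04 each), genes of ribosome recycling, vacuolar phosphate transport and sterol synthesis. When group means were used in place of libraries, 2 of the 3 nearest stayed for GCV1 and for SHM2. The number was 1 for GCV2, GCV3 and MTD1, and 0 for LPD1 and SHM1. The libraries share their group, so these distances describe patterns and carry no test.

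The gene lists that follow were also chosen with earlier results of these data known. Genes named from them were picked in part by the size of their change. Their calls and limma adjusted p values against wild type are therefore given as a description, and not as tests of a question set beforehand. Other folate enzymes went in both directions, as did all features, of which 29.3% to 30.1% were called each way. Of 15 listed, 3 rose and 5 fell with the epl1Δ sds3Δ label against wild type, 3 rose and 5 fell with the esa1Δ sds3Δ label, and 3 rose and 6 fell with the esa1Δ epl1Δ sds3Δ label, with medians of -0.08, -0.04 and 0.01 on the log2 scale. The medians were -0.002, 0.05 and 0.12 without wild-type replicate 1, the second with its sign changed, and 3, 3 and 2 rose and 5, 5 and 6 fell. With RPKM as deposited 1 rose in each comparison and 6, 7 and 6 fell. MIS1, the mitochondrial trifunctional folate enzyme, rose and averaged 43.4 ± 2.06, 40.9 ± 2.87 and 39.6 ± 0.0750 scaled RPKM in the 3 mutant groups in the same order, against 26.8 ± 7.33 in wild type (SD, 3 libraries each), with limma adjusted p values of 0.000975, 0.00238 and 0.00379. Its cytosolic counterpart ADE3 fell, to 130.8 ± 14.2, 117 ± 10.9 and 109.4 ± 8.63, against 183 ± 20.9 in wild type (limma adjusted p 0.00364, 0.000521 and 0.000173). FAU1, which returns a stored folate to the active pool, fell, with log2 fold changes of -0.80, -0.71 and -0.67 and limma adjusted p values of 7.60e-05, 0.000190 and 0.000316. MET6, which makes methionine with a methyl group from folate, fell (-0.77, -0.57 and -0.75), and MET12 and MET13, which make that methyl-folate, fell as well (limma adjusted p between 1.42e-05 and 0.00421 for these 3 genes). DFR1, CDC21, ABZ1 and ABZ2 did not pass in any comparison with wild type, nor did FOL2 and FMT1, apart from FOL2 with RPKM as deposited and FMT1 with voom or without esa1Δ sds3Δ replicate 2 (limma adjusted p 0.0409, 0.0438 and 0.0286, 1 comparison each). The rises of MET7 and FOL1 ended with RPKM as deposited (limma adjusted p 0.139 to 0.665 and 0.294 to 0.383). Without wild-type replicate 3 the rise of FOL1 ended in all 3 comparisons (0.0695 to 0.152) and that of MET7 with the epl1Δ sds3Δ label (0.0937).

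Genes that make or use serine and glycine also went in both directions, as all features did. Of 10 listed, 4 rose and 2 fell with the epl1Δ sds3Δ label, 4 rose and 4 fell with the esa1Δ sds3Δ label, and 3 rose and 3 fell with the esa1Δ epl1Δ sds3Δ label, with medians of -0.12, -0.25 and -0.19 on the log2 scale. The medians without wild-type replicate 1 were 0.11, -0.01 and -0.07, so that the first changed sign, and 4, 3 and 3 rose and 2, 3 and 3 fell. With RPKM as deposited 3, 3 and 2 rose and 5 fell in each. CHA1, the serine and threonine deaminase of amino acid breakdown, rose and averaged 4.74 ± 1.28, 4.50 ± 0.393 and 5.32 ± 1.14 scaled RPKM in the same order of mutant groups, against 1.02 ± 0.355 in wild type (SD, 3 libraries each; limma adjusted p 3.00e-05, 3.73e-05 and 1.28e-05). HEM1, which uses glycine in the first step of haem synthesis, rose by 0.84, 0.77 and 0.63 on the log2 scale (limma adjusted p 1.12e-05, 2.34e-05 and 0.000111). AGX1, which makes glycine from glyoxylate, rose by 0.85, 0.65 and 0.54, the last of which ended with RPKM as deposited (limma adjusted p 0.0781). SER33, an enzyme of the first step of serine synthesis, fell (log2 fold changes -0.77, -0.77 and -0.97, limma adjusted p 3.61e-05, 3.89e-05 and 5.30e-06). SER2 did not pass in any of the 3, though it was called lower in both groups with an esa1Δ label once wild-type replicate 3 was left out (limma adjusted p 0.00540 and 0.0175). SER3, the isozyme of SER33, had log2 fold changes of -0.26, -0.30 and -0.59, of which the last was called (limma adjusted p 0.0131). Its values without wild-type replicate 1 were 0.01, -0.03 and -0.32, of which the last was called. The others were called lower with RPKM as deposited (limma adjusted p 0.0351 and 0.0243), and that of esa1Δ sds3Δ also without wild-type replicate 3 (0.0412).

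The complexes that hold LPD1 besides glycine cleavage, with the enzymes that attach lipoate, were lower on the whole. Of 9 listed genes, 6 fell, 1 rose and 2 were not called in each of the 3 comparisons with wild type, with medians of -0.45, -0.42 and -0.34 on the log2 scale. With wild-type replicate 1 left out, 7, 5 and 6 fell and 1 rose in each. With RPKM as deposited none rose and 8, 7 and 8 fell. PDB1, a subunit of pyruvate dehydrogenase, fell and averaged 218 ± 8.16, 213 ± 10.9 and 190.9 ± 10.8 scaled RPKM, against 385 ± 39.3 in wild type (SD, 3 libraries each; limma adjusted p 1.47e-05, 1.10e-05 and 2.49e-06). LAT1, the lipoyl subunit of that complex, fell, with log2 fold changes of -0.65, -0.53 and -0.57, and so did KGD2, the lipoyl subunit of 2-oxoglutarate dehydrogenase (-0.55, -0.42 and -0.50). LIP2, which attaches lipoic groups to such proteins as GCV3, fell (-0.67, -0.92 and -0.63, limma adjusted p 0.00130, 0.000121 and 0.00204). PDA1, the partner of PDB1, had values of 0.03, 0.22 and -0.01 and was not called, but in esa1Δ sds3Δ against wild type it passed once the replicate numbers were fitted as a block (limma adjusted p 0.0460, against 0.0607 without it) or wild-type replicate 2 was left out (0.0112). KGD1 was not called either, but was lower with the epl1Δ sds3Δ and esa1Δ epl1Δ sds3Δ labels without wild-type replicate 1 (limma adjusted p 0.0227 and 0.0379), and with all 3 labels with RPKM as deposited (0.00401, 0.0105 and 0.0134). The rise of LIP5 ended with RPKM as deposited (limma adjusted p 0.463 to 0.808) and without wild-type replicate 2 or 3 (0.0764 to 0.168).

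BAS1 had 6.17 ± 0.689, 5.53 ± 0.961 and 6.61 ± 0.186 scaled RPKM for epl1Δ sds3Δ, for esa1Δ sds3Δ and for esa1Δ epl1Δ sds3Δ, against 4.25 ± 1.16 in wild type (SD, 3 libraries each). It rose in the first and the last (log2 fold changes 0.47 and 0.56, limma adjusted p 0.0200 and 0.00780) and was not called in esa1Δ sds3Δ (0.33, 0.0877), but was without wild-type replicate 1 (0.50, 0.00954) or without esa1Δ sds3Δ replicate 3 (0.45, 0.0369). The call with the epl1Δ sds3Δ label ended without wild-type replicate 2 or 3 or epl1Δ sds3Δ replicate 2 (limma adjusted p 0.0857, 0.0633 and 0.0727). GCN4 had 814 ± 52.5, 838 ± 47.6 and 736 ± 43.4, against 623 ± 74.6, and rose in the libraries labelled epl1Δ sds3Δ and esa1Δ sds3Δ (0.39 and 0.43, limma adjusted p 0.00616 and 0.00335). With the esa1Δ epl1Δ sds3Δ label it had 0.24 (0.0599), and was called without wild-type replicate 2 (0.0102). None of these BAS1 and GCN4 calls held with RPKM as deposited (limma adjusted p 0.0517 to 0.273). PHO2, whose product is also known as Bas2, had 8.66 ± 1.34, 8.52 ± 1.03 and 9.56 ± 0.432, against 9.50 ± 1.25, and was not called, but with RPKM as deposited it was called lower with the epl1Δ sds3Δ and esa1Δ sds3Δ labels (limma adjusted p 0.0475 and 0.0398).

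Purine synthesis genes fell or were not called. Of 10 listed, 4 fell with the epl1Δ sds3Δ label, 8 with the esa1Δ sds3Δ label and 8 with the esa1Δ epl1Δ sds3Δ label, and none rose, with medians of -0.52, -1.03 and -0.94 on the log2 scale. With RPKM as deposited 9 fell in each. Without wild-type replicate 1 the counts were 4, 8 and 7 that fell, the medians were -0.20, -0.78 and -0.66, and ADE57 rose with the epl1Δ sds3Δ label (0.71, limma adjusted p 0.00350). ADE17 averaged 83.6 ± 19.0, 30.2 ± 1.59 and 39.5 ± 3.12 scaled RPKM, against 160.1 ± 110.2 in wild type (SD, 3 libraries each). It fell in both groups with an esa1Δ label (log2 fold changes -2.16 and -1.79, limma adjusted p 9.10e-05 and 0.000378). With the epl1Δ sds3Δ label it had -0.75 (0.0590), and was called without wild-type replicate 2 or 3 or epl1Δ sds3Δ replicate 1 (0.0303, 0.0156 and 0.0420). Without wild-type replicate 1, where the wild-type mean was 96.5, the log2 fold changes of ADE17 were -0.23 (0.213), -1.64 and -1.27. ADE1 fell, with log2 fold changes of -0.83, -1.83 and -1.51, and the first of these ended when only the groups compared were fitted or when any library labelled epl1Δ sds3Δ was left out (limma adjusted p 0.0806, and 0.0503 to 0.0742). The values of ADE1 without wild-type replicate 1 were -0.31, -1.32 and -0.996, all called. ADE12, adenylosuccinate synthase, fell (-0.57, -1.05 and -1.03, limma adjusted p 0.00486, 5.84e-05 and 6.24e-05), the first by -0.37 without wild-type replicate 1. ADE2 fell (-1.21, -1.99 and -1.59), in a background whose wild-type label carries ade2-1. ADE16 was not called in any of the 3, with values between -0.10 and -0.08, but with RPKM as deposited it was called lower in all 3 (limma adjusted p 0.00300, 0.00480 and 0.00901).

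Between the mutant labels, none of the genes of these 5 lists was called by limma. The purine list had median log2 differences of -0.57 for esa1Δ sds3Δ against epl1Δ sds3Δ, -0.44 for esa1Δ epl1Δ sds3Δ against epl1Δ sds3Δ and 0.11 for esa1Δ epl1Δ sds3Δ against esa1Δ sds3Δ. For the 7 genes the same medians were -0.44, -0.45 and -0.01, and for all features they were -0.003, 0.0006 and -0.002.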

How the data were processed

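RPKM values were deposited by the authors for 12 libraries; the counting program and strand setting are not given in the sources used here. Per the submitters' processing notes, cutadapt, Bowtie 0.12.2 and STAR were used with sacCer3 and mm8, roles not given. Libraries were made from rRNA-depleted total RNA with a stranded kit, per the labels' protocols. RPKM times exon length gave whole reads within 0.01 read for 99.7% of values under 5000 reads.

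RPKM were divided by median-of-ratios factors. The 5951 features averaging 1 RPKM or more were fitted in limma 3.58.1 (R 4.3.3) on log2(scaled RPKM + 1), 12 libraries in 1 fit with a mean-variance trend, and p-values were adjusted by the Benjamini-Hochberg method over all features. The limma step was tested on simulated data. The 7 genes and all lists were chosen with earlier results of these data known, so adjusted p-values of listed genes against wild type are descriptive. Of each list, up to 4 genes with the largest mean absolute change among those called were named, with any needed to say which were not called. Names, lengths and sequences came from RefSeq's R64 annotation, which names 6048 of the 7126 features. Replicate numbers were not used to pair libraries in the main fit, since the labels name no shared batch. Deviations from the group means of same-numbered libraries correlated at 0.119, 0.124 and 0.182 in esa1Δ sds3Δ against wild type. Over the 6 comparisons these correlations lay between -0.0934 and 0.294. Alternatives were other scalings, pseudocounts (0.1 and 5) and filters, voom on recovered reads, a replicate block, fits of 2 groups and leaving out each library.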

Additional observations from a re-analysis of the deposited data

How the results depend on the processing

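Against wild type, GCV1, GCV2, GCV3, LPD1 and SHM2 had negative log2 fold changes under every alternative run, from -2.82 to -1.51 for GCV1 and from -1.40 to -0.20 for SHM2. SHM1 and, in libraries labelled epl1Δ sds3Δ and esa1Δ epl1Δ sds3Δ, MTD1 changed sign in some. PDA1 in epl1Δ sds3Δ against wild type, 0.03 and not called, was called lower with RPKM as deposited (-0.22). Of 90 calls of listed genes against wild type, 66 held under all alternatives, 16 ended with RPKM as deposited and 6 without wild-type replicate 1. By list, 19 of 25 folate, 15 of 20 serine and glycine, 14 of 21 LPD1 complex, 18 of 20 purine and 0 of 4 transcription factor calls held under all.

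Features called between esa1Δ sds3Δ and epl1Δ sds3Δ numbered 11, or 7 with a filter at 10 RPKM and 7 to 8 with 1 library left out. Between esa1Δ epl1Δ sds3Δ and epl1Δ sds3Δ they numbered 8, or 4 to 6 with 1 library left out, the lowest without epl1Δ sds3Δ replicate 3 or esa1Δ epl1Δ sds3Δ replicate 1. Between esa1Δ epl1Δ sds3Δ and esa1Δ sds3Δ they numbered 3, or 5 with voom and 6 with only those groups fitted. With the replicate block, calls numbered 3729, 3715 and 3697 against wild type (3576, 3552 and 3535 without it) and 13, 9 and 3 between mutants. In esa1Δ sds3Δ against wild type, the replicate block changed no call of a listed gene other than PDA1. With the epl1Δ sds3Δ label the block called SER1, KGD1 and ADE17 lower than wild type (limma adjusted p 0.0405, 0.0443 and 0.0400). With the esa1Δ epl1Δ sds3Δ label it called GSH2 lower and GCN4 higher (limma adjusted p 0.0437 and 0.0389).

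The 3 libraries a group limit the precision. GCV1 rests on as few as 52 reads in a library. The intervals of the differences among mutants rest on the spread of all 12 libraries, wild type included, and smaller differences could not be seen.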

Other observations

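Other features shared the high level of wild-type replicate 1, a pattern looked for after the values were seen. Of the 40 features with the largest excess over the other wild-type libraries, 3 were MTD1, SHM2 and GCV2, 5 were purine synthesis genes and 14 were tRNA genes. The share of tRNA genes among all 5951 features was not counted. Low counts are among the 40, such as MFA2 with 5 reads in replicate 1 and 1 in each other wild-type library. IMD2, which encodes an enzyme of guanine nucleotide synthesis, exceeded the other wild-type libraries by 1.22 on the log2 scale, HPT1, of purine salvage, by 1.04 and BIO5, a transporter gene of biotin synthesis, by 1.37. The tRNA gene tG(UCC)O had the largest excess of all features at 1.89. Purine genes also stood above the other libraries of their group in epl1Δ sds3Δ replicate 1, with 8 of 10 genes higher and a median excess of 0.20. In that group they had medians of -0.21 and -0.02 in replicates 2 and 3. In wild-type replicates 2 and 3 the medians were -0.16 and -0.57.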
